A study of Mus musculus with 16 samples.

Results

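Expression of 10 genes of the canonical Wnt pathway was examined in mouse tooth germs at embryonic day 14.5, the cap stage. They were the 6 ligand genes *Wnt3*, *Wnt4*, *Wnt6*, *Wnt7b*, *Wnt10a* and *Wnt10b* and the 4 target genes *Lef1*, *Axin2*, *Nkd1* and *Lgr5*. Each was read from the probe set that carried its symbol alone, and all 10 were found among the 19938 genes with such a probe set. *Wnt4* was the only member with more than 1, and the probe set with the higher mean over all samples was used. Total RNA of wild-type C57Bl6 embryos had been hybridized to Affymetrix Mouse Gene 1.0 ST arrays from 4 samples of lower incisors, 4 of maxillary molars and 8 of mandibular molars. Every sample was a pool of 4 first-molar or incisor germs, so that the spread given below is between pools and not between embryos. Whole germs were dissected, and epithelium and mesenchyme were therefore measured together.

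Wnt ligands are secreted lipid-modified proteins that bind Frizzled and LRP receptors. In the canonical branch of the pathway, receptor binding stops the destruction of β-catenin, which enters the nucleus and activates target genes together with transcription factors of the TCF/LEF family. Some targets feed back on the pathway, and *Axin2* and *Nkd1* are both induced by it and restrain it. In the tooth germ the pathway is known to act in the dental epithelium and in the enamel knot, the signaling center that precedes the cusps, and loss of *Lef1* is known to arrest teeth before the cap stage.

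All values are log2 signals after RMA (robust multi-array average, which corrects background, equalizes the distribution of signals across arrays and summarizes the probes of a set), so that a difference of 1 is a doubling. Signals of different probe sets are not on one scale, and levels are compared here between samples and never between genes. The medians of the arrays lay between 6.80 and 6.99. A gene passed the test when its adjusted p was under 0.1 and its fold change above 1.2, in limma with Benjamini-Hochberg adjustment over all probe sets kept. Differences are mandibular molar minus the other tooth type throughout.

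The epithelial keratin genes *Krt14* and *Krt5* had mean signals of 11.34 to 11.60 and 12.03 to 12.28 in the 3 tooth types, and the mesenchymal homeobox gene *Msx1* 10.29 to 10.80, so that both tissues of the germ were present in every group. *Barx1*, a homeobox gene of the molar field, averaged 8.25 ± 0.44 (SD, n = 4) in incisors, against 11.31 ± 0.12 (SD, n = 8) in lower molars and 11.54 ± 0.11 (SD, n = 4) in upper ones. *Isl1*, a homeobox gene of the incisor field, was at 8.54 ± 0.10 (SD, n = 4) in incisors and near 6.2 in both kinds of molar. The tooth labels therefore matched these markers.

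Mandibular molars 1 to 4 and 5 to 8 differed in some members, although no label names a batch. They did not overlap in *Wnt7b*, at 7.83 ± 0.20 (SD, n = 4) in 1 to 4 and 7.46 ± 0.12 (SD, n = 4) in 5 to 8, nor, narrowly, in *Nkd1*, at 9.73 ± 0.20 (SD, n = 4) and 9.45 ± 0.16 (SD, n = 4). The means also differed in *Wnt3*, 6.77 against 6.46, *Wnt4*, 9.27 against 8.98, and *Lef1*, 9.74 against 10.02, but there the samples overlapped. The share of all probe sets without overlap between these samples was not computed, so *Wnt7b* and *Nkd1* cannot be called unusual in this. Over all probe sets the median correlation of incisors was 0.990 with mandibular molars 1 to 4 and 0.986 with 5 to 8, and that of maxillary molars 0.989 and 0.994. Below, the first sample set means the incisors and mandibular samples 1 to 4, the second set means the maxillary molars and mandibular samples 5 to 8, and the difference of each member is also given within its set. The study left out 1 incisor sample for a problem during hybridization without naming it, and all 4 were used here.

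Upstream sequence was searched for all members that had a promoter window, and windows are shown for pairs that varied together across the samples. *Lef1* with *Axin2* had the highest correlation of the target pairs and *Wnt3* with *Wnt4* that of the ligand pairs. Other pairs came first once the means of tooth type and sample set were taken out, as given further on. RefSeq promoter windows of the assembly GRCm38.p6, running from 250 bases before a listed transcript start to 50 after it, were found for 7 of the 10 members. Only the forms CTTTGAT and CTTTGAA of the TCF/LEF motif were searched, on both strands. They were in none of the windows of these 7 members and in 8.65% of 32851 promoter windows of the same length. Other forms of the motif were not searched. The shorter core CTTTG, which lies inside both motifs and was searched on both strands after the longer ones had given no match, was in the first window of 3 of the 7 members (*Wnt3*, *Wnt10b* and *Lef1*) and in 53.9% of all windows. The 4 windows of the paired genes are shown with this core, or its reverse complement CAAAG, in capitals. For *Lef1*, which has 4 listed starts, the first is shown, and the start listed for *Axin2* lies inside the annotated gene rather than at its outer end.
*Lef1*, chr3:131110047-131110346 (+ strand): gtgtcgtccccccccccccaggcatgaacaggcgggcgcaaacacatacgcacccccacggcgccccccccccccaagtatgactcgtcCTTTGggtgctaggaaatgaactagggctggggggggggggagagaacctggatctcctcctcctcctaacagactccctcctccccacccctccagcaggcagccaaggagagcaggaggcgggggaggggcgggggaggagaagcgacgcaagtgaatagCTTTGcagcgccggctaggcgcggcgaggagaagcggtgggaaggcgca
*Axin2*, chr11:108920099-108920398 (+ strand): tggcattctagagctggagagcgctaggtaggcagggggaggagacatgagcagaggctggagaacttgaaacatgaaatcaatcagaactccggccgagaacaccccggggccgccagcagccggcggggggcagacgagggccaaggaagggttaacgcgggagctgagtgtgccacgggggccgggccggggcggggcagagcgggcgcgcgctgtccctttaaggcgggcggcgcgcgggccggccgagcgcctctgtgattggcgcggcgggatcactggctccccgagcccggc
*Wnt3*, chr11:103773925-103774224 (+ strand): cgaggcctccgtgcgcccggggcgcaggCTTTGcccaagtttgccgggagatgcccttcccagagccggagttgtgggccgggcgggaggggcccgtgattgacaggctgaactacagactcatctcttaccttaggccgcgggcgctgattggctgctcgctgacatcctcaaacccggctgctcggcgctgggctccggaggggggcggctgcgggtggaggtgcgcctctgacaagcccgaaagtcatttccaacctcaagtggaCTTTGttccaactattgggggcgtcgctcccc
*Wnt4*, chr4:137277385-137277684 (+ strand): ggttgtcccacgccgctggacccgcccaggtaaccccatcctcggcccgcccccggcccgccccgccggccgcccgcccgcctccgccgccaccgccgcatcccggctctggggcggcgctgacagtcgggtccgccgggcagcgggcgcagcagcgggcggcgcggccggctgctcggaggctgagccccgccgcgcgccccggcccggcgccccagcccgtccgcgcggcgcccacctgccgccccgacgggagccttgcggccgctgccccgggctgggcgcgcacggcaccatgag
The core occurred at 2 places in the *Lef1* window and at 2 in the *Wnt3* window, and at none in those of *Axin2* and *Wnt4*. The second place in the *Wnt3* window reads CTTTGTT, a form of the motif that was not searched. The *Wnt4* window was the richest in G and C of the 4, at 84.3%, against 65.7% for *Wnt3*, 67.3% for *Lef1*, 70.0% for *Axin2* and a median of 52.7% over all windows. A match is a run of letters and not a bound site, and other control regions of these genes were not searched. *Wnt6* and *Wnt10a* lie side by side on chromosome 1, with 6696 bases and 0 other genes between them.

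**Figure D1:**
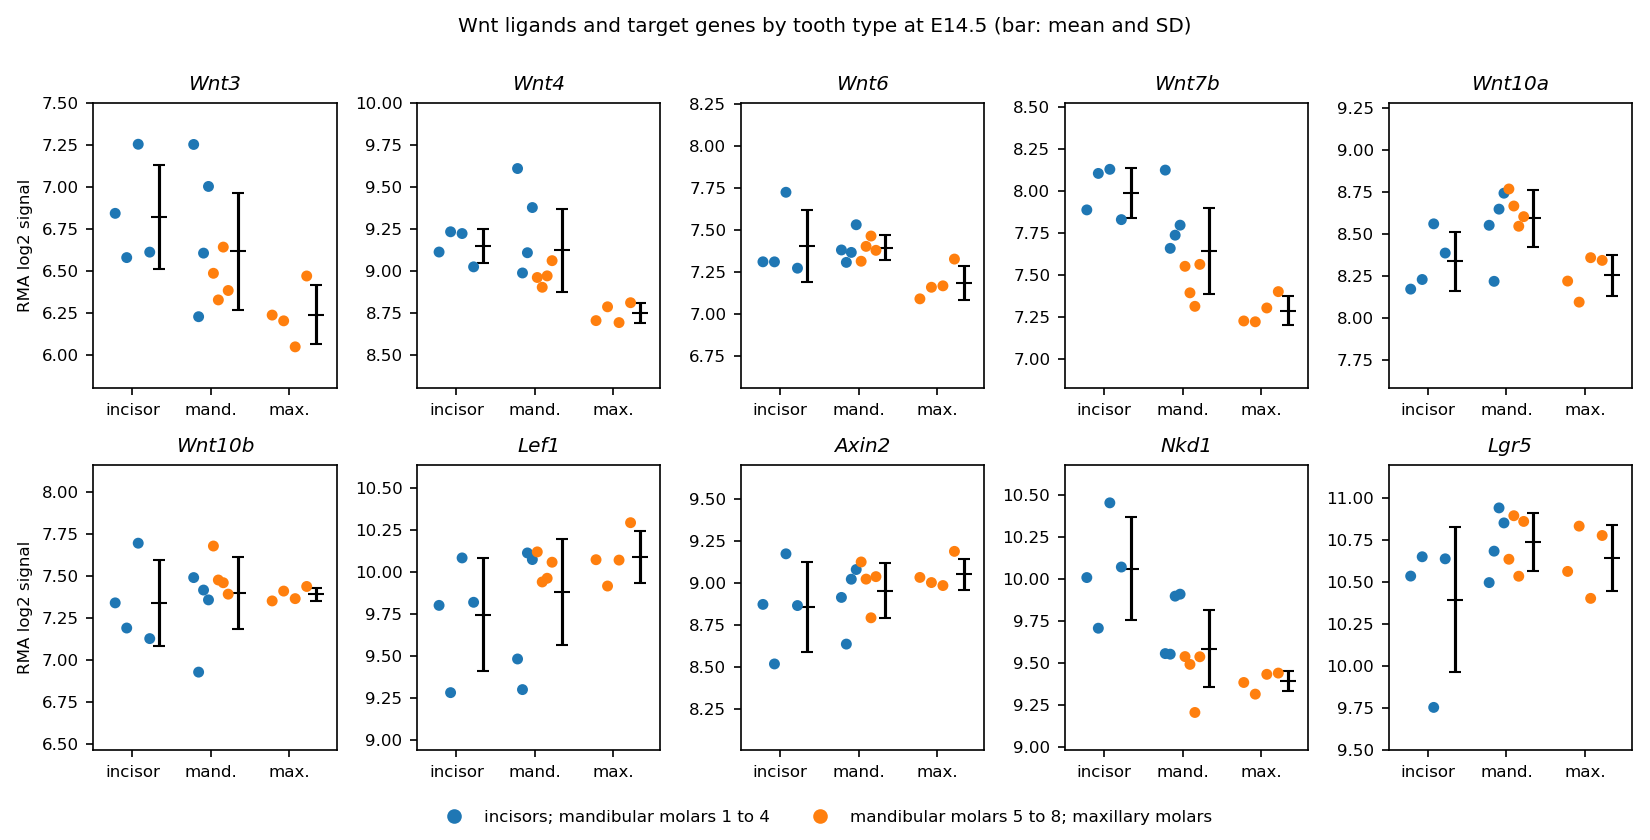
RMA log2 signal (y axis) of each of the 10 genes in lower incisors (n = 4), mandibular molars (n = 8) and maxillary molars (n = 4), with every axis spanning the same log2 range. Points are samples coloured by sample set, and the bar is the mean ± SD; the 8 mandibular *Wnt4* points all lie above the 4 maxillary points, and for no gene do mandibular molars and incisors separate.

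None of the 10 members passed the test in either comparison. Against the incisors 4.93% of 29258 probe sets passed, and against the maxillary molars 2.18% of 29068. At a fold change above 2 these shares were 0.506% and 0.196%. The limma test gave an unadjusted p under 0.05 for 4 members against incisors, where 18.4% of all probe sets had one, and for 5 against maxillary molars, where 17.1% had one. The 4 against incisors were divided between directions and between roles, *Wnt10a* and *Lgr5* being higher in mandibular molars, as were 9.51% of all probe sets, and *Wnt7b* and *Nkd1* lower. In no member were mandibular molars and incisors without overlap, where 3.69% of all probe sets were. The 5 against maxillary molars were all ligands, *Wnt3*, *Wnt4*, *Wnt6*, *Wnt7b* and *Wnt10a*, and all were higher in mandibular molars, which held for 9.68% of all probe sets. Some of these 5 varied together across the samples, as given further on, so they are not 5 separate results. The median difference of the 6 ligands was 0.35 against maxillary molars and that of the 4 targets -0.00, while the median over all probe sets was 0.02. Within the second sample set the medians were 0.21 for ligands and -0.0035 for targets. Against incisors the medians were -0.02 for ligands, 0.12 for targets and -0.02 for all probe sets. Within the first set they were -0.02 for ligands and 0.03 for targets. The ends of the members' 95% intervals lay at most 0.79 from 0 against incisors and 0.75 against maxillary molars. Where an interval included 0, a moderate difference could not be told from 0 at these sample numbers. That of *Wnt3* against incisors, for example, ran from -0.62 to 0.20. In pooled germs, fewer cells expressing a gene and less RNA of it per cell cannot be told apart.

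**Figure D2:**
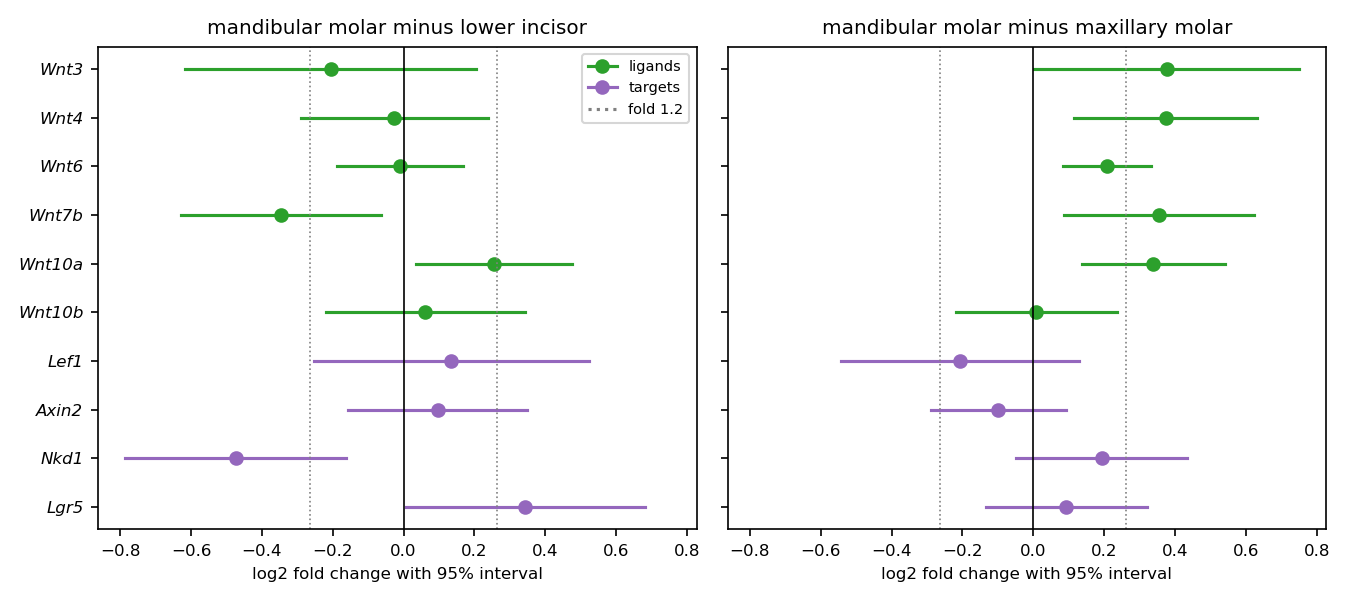
Log2 difference of each gene (x axis, point) with its 95% interval (line) for mandibular molar minus lower incisor and mandibular molar minus maxillary molar, ligands in green and targets in purple. The 6 ligands lie at or right of 0 against maxillary molars, from 0.01 to 0.38, and on both sides of it against incisors, from -0.35 to 0.26.

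*Wnt4* encodes a ligand of epithelia that can signal through more than one branch of the pathway. Its signals in maxillary molars were 8.71, 8.79, 8.69 and 8.81, and in mandibular molars the lowest was 8.90, the median 9.03 and the highest 9.61. All 8 mandibular samples lay above all 4 maxillary samples, which was so for no other member and, in one direction or the other, for 4.1% of all probe sets. The difference was 0.37 (standard error 0.12, adjusted p = 0.166), and 0.23 within the second set. The second *Wnt4* probe set gave 0.31 with an adjusted p of 0.176. Incisor signals, at 9.11, 9.23, 9.22 and 9.03, fell inside the mandibular range, and the difference was -0.03 (standard error 0.12, adjusted p = 0.925) and 0.12 within the first set.

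*Wnt10a* is an epithelial ligand gene whose human counterpart is mutated in inherited tooth agenesis. By fold change and adjusted p together, it was the ligand nearest to passing in favour of mandibular molars on both sides. Against maxillary molars *Wnt6* had as low an adjusted p, with a fold change below 1.2. Against incisors the fold change of *Wnt10a* was itself below 1.2, at 1.19. The signals of *Wnt10a* were 8.17, 8.23, 8.56 and 8.38 in incisors and 8.22, 8.09, 8.36 and 8.34 in maxillary molars. In mandibular molars the lowest was 8.22, the median 8.62 and the highest 8.77. The lowest mandibular value, that of sample 2, lay within both other groups, and the remaining 7 lay above every maxillary value. The difference from maxillary molars was 0.34 (standard error 0.09, adjusted p = 0.111). Within the second set it was 0.39 with an adjusted p of 0.070, which passed, and without mandibular molar 2 it was 0.39 with an adjusted p of 0.015. Of the 12 fits that left out 1 sample only 1 passed, and the adjusted p reached 0.363. From incisors the difference was 0.26 (standard error 0.10, adjusted p = 0.207) and 0.20 within the first set. Without mandibular molar 2 it was 0.31 with an adjusted p of 0.046. Here too only 1 of the 12 fits passed, and the adjusted p reached 0.414.

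*Wnt6*, the neighbour of *Wnt10a* and a ligand gene of surface epithelium, had signals of 7.09, 7.16, 7.17 and 7.33 in maxillary molars and of 7.31 at the lowest, 7.38 at the median and 7.53 at the highest in mandibular molars. Maxillary molar 4 alone reached the mandibular range, above mandibular molars 2 and 5. The difference was 0.21 (standard error 0.06, adjusted p = 0.111), below the fold of 1.2, and it kept its size within the second set, at 0.20. In incisors 3 of the 4 signals lay at 7.28 to 7.31 and the other, of incisor 3, at 7.73. The difference from incisors was -0.01 (standard error 0.08, adjusted p = 0.954) and -0.0080 within the first set.

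*Wnt7b*, known as a ligand that oral ectoderm expresses outside the tooth-forming field, ran down from incisors to mandibular to maxillary molars. Incisor signals were 7.89, 8.11, 8.13 and 7.83, mandibular signals 7.32 at the lowest, 7.61 at the median and 8.13 at the highest, and maxillary signals 7.23, 7.22, 7.31 and 7.40. Mandibular molar 1 reached the incisors' range and mandibular molars 6 and 7 the maxillary range, so neighbouring groups overlapped, while incisors and maxillary molars did not. The difference was -0.35 from incisors (standard error 0.13, adjusted p = 0.186) and 0.35 from maxillary molars (standard error 0.12, adjusted p = 0.203). Both were smaller within the sets, at -0.16 and 0.17. Without mandibular molar 1 the difference from incisors was -0.41 with an adjusted p of 0.053, which passed. Of the 12 fits against incisors that left out 1 sample only 1 passed, and the adjusted p reached 0.446.

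*Wnt3*, a canonical ligand gene known from the enamel knot, showed the same order with more spread. Incisor signals were 6.85, 6.58, 7.26 and 6.61, mandibular signals 6.23 at the lowest, 6.55 at the median and 7.26 at the highest, and maxillary signals 6.24, 6.21, 6.05 and 6.47. Incisor 3 and mandibular molar 1 were the highest samples of their groups, and mandibular molars 2, 6 and 8 lay inside the maxillary range. The difference from maxillary molars was 0.38 (standard error 0.17, adjusted p = 0.289) and 0.22 within the second set, and that from incisors -0.21 (standard error 0.19, adjusted p = 0.566) and -0.05 within the first.

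*Wnt10b*, the paralog of *Wnt10a*, did not share its pattern. Mandibular molars averaged 7.40 ± 0.21 (SD, n = 8), maxillary molars 7.39 ± 0.04 (SD, n = 4) and incisors 7.34 ± 0.25 (SD, n = 4). All maxillary values, from 7.35 to 7.44, lay inside the mandibular range of 6.93 to 7.68. The difference from maxillary molars was 0.01 with a 95% interval from -0.22 to 0.24, and from incisors 0.06 with an interval from -0.22 to 0.34. Within the sets these were 0.11 and -0.04.

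*Nkd1*, which encodes an inducible antagonist that binds Dishevelled, had the largest difference of any member and came nearest to passing. Its incisor signals were 10.01, 9.71, 10.46 and 10.07. In mandibular molars the lowest was 9.21, the median 9.55 and the highest 9.91, and in maxillary molars the signals were 9.39, 9.32, 9.43 and 9.44. Only incisor 2 fell inside the mandibular range, reaching below mandibular molars 3 and 4, and the maxillary samples all lay below the incisors. The difference from incisors was -0.47 (standard error 0.14, adjusted p = 0.103), a value just past the threshold, with a 95% interval from -0.79 to -0.16. Over 16 other settings its adjusted p ran from 0.026 to 0.724 and it passed in 8, and within the first set the difference was -0.33. It also passed without incisor 2, mandibular molar 3 or mandibular molar 4, at -0.59, -0.52 and -0.52. From maxillary molars it differed by 0.19 (standard error 0.11, adjusted p = 0.371), and by 0.05 within the second set.

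*Lgr5*, which encodes a receptor for R-spondins and marks epithelial stem cells in several organs, had signals of 10.54, 10.65 and 10.64 in 3 incisors and of 9.75 in incisor 3. Mandibular signals reached from 10.50 to 10.94 with a median of 10.77, and maxillary signals were 10.56, 10.83, 10.40 and 10.78. Apart from incisor 3 the groups lay over one another. The difference from incisors was 0.34 (standard error 0.16, adjusted p = 0.265). Without incisor 3 it came to 0.13, with an adjusted p of 0.657. The difference from maxillary molars was 0.09 (standard error 0.10, adjusted p = 0.631). Within the sets the differences were 0.35 and 0.09.

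*Lef1*, a TCF/LEF factor gene that is itself induced by the pathway, had signals of 9.80, 9.28, 10.08 and 9.82 in incisors, of 9.30 at the lowest, 10.01 at the median and 10.12 at the highest in mandibular molars, and of 10.07, 9.91, 10.07 and 10.29 in maxillary molars. Incisor 2 and mandibular molars 1 and 2 were the low samples, at 9.28, 9.48 and 9.30, and all others were at 9.80 or above. The difference was 0.13 from incisors (95% interval -0.25 to 0.52) and -0.21 from maxillary molars (95% interval -0.54 to 0.13), and within the sets -0.0043 and -0.07. *Axin2*, a scaffold gene of the β-catenin destruction complex that is widely used as a readout of the pathway, followed the same order of means, with incisors at 8.86 ± 0.27 (SD, n = 4), mandibular molars at 8.95 ± 0.16 (SD, n = 8) and maxillary molars at 9.05 ± 0.09 (SD, n = 4). Its differences were 0.10 (95% interval -0.16 to 0.35) and -0.10 (95% interval -0.29 to 0.09), and within the sets 0.06 and -0.06. For both genes all these intervals included 0.

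The order of means from incisor to mandibular to maxillary molar fell for *Wnt3*, *Wnt4*, *Wnt6*, *Wnt7b* and *Nkd1* and rose for *Lef1* and *Axin2*, and mandibular molars were highest for *Wnt10a*, *Wnt10b* and *Lgr5*. Except for *Wnt4* in the 2 kinds of molar, no neighbouring tooth types in these orders were free of overlap. Incisors and maxillary molars, the ends of the orders that fell, did not overlap in *Wnt3*, *Wnt4*, *Wnt7b* and *Nkd1*. They belong to different sample sets, which cannot be told apart from tooth type in this pair, and 32.3% of all probe sets were without overlap between them.

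Across the 16 samples the members formed groups by their profiles. These correlations are a description only, since the samples share tooth types and sample sets. *Lef1* and *Axin2* had the highest Pearson r of any pair, 0.88. After the mean of each tooth type and set was taken out their r was 0.87, and *Nkd1* joined them: its r with *Axin2* went from 0.12 to 0.91, then the highest of any pair, and its r with *Lef1* from -0.01 to 0.86. *Lef1* was the gene most like *Axin2* among 17327 genes compared. *Wnt4* had an r of 0.86 with *Wnt3* and of 0.86 with *Wnt7b* (0.79 and 0.82 with the means taken out). *Wnt3* and *Wnt10b* went from 0.36 to 0.81 in the same step, and *Wnt4* was the gene second most like *Wnt3*, after *Arid3a*. *Wnt7b* and *Nkd1*, whose means fell in the same order, had an r of 0.75 that went down to 0.10 once the means were taken out, so that the 2 genes were alike between groups of samples and not within them. The lowest r was that of *Wnt7b* and *Lef1*, -0.49, which came to -0.02 with the means taken out.

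Apart from *Lef1* and *Wnt4*, none of the genes most like a member stood in the pathway or marker lists. *Wnt4* varied most nearly as *Gsdmc* and *Aldh3b2* (r = 0.91 and 0.90), *Wnt7b* as AA386476 and *Igfbp2* (0.93 and 0.92), and *Wnt10a* as *Nectin1*, an adhesion gene, and *Ptpro* (0.89 and 0.87). *Wnt6* was most like *Faim2* and *Bcan* (0.87 and 0.86), and *Wnt10b* most like *Nav2* and Krtap10-10 (0.81 and 0.78). Among the targets, *Lef1* was most like *Arhgap35* and *Lasp1* (0.93 and 0.91), *Nkd1* like *Ahdc1* and *Vgll3* (both 0.95), and *Lgr5* like *Cd72* and *Tnfrsf23* (0.83 and 0.82). *Axin2* had *Sipa1l3* second, at 0.87, and *Wnt3* had *Arid3a* first, at 0.86.

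**Figure D3:**
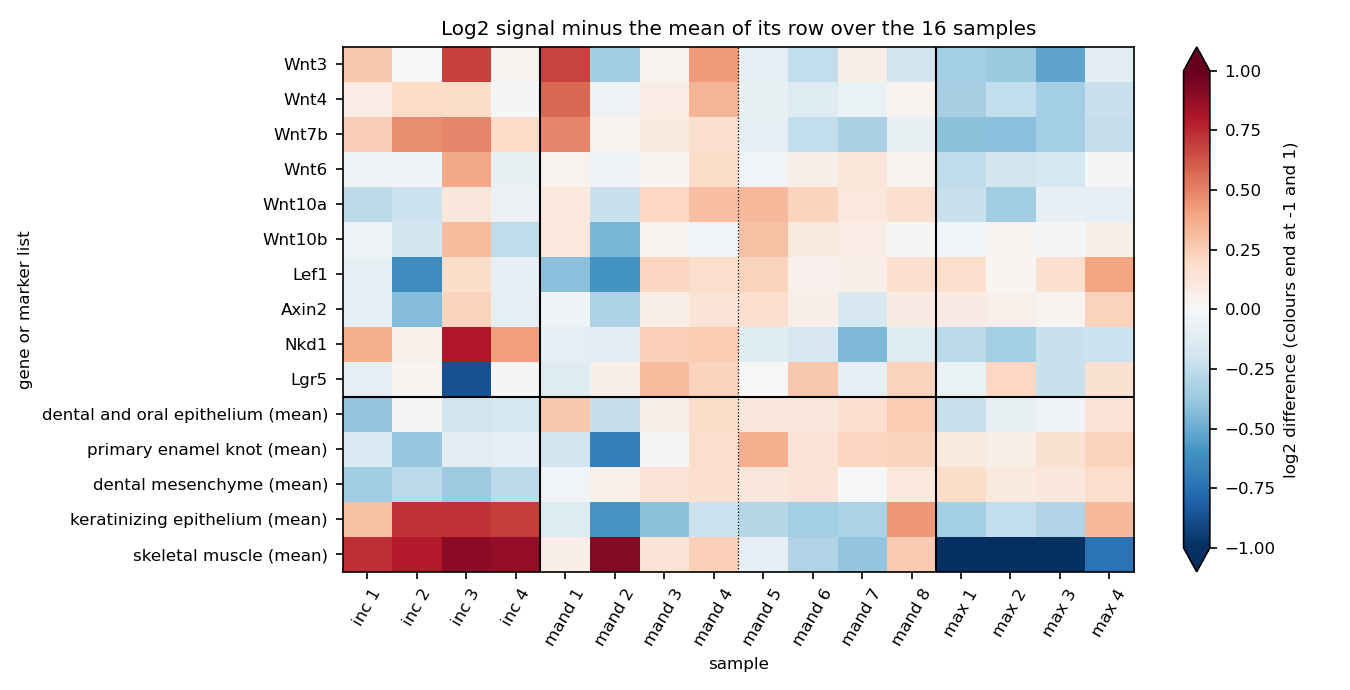
Log2 signal of the 10 genes (upper rows) and mean log2 signal of 5 marker lists (lower rows) in each of the 16 samples (columns), less the mean of the row. Colours end at -1 and 1, the dotted line divides mandibular molars 1 to 4 from 5 to 8, and *Wnt3*, *Wnt4* and *Wnt7b* are all at or below their means in maxillary molars, where the muscle list is also lowest.

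Markers of tissues that a dissected germ can carry differed between the groups as well. The mean of 14 epithelial markers ran from 9.64 to 10.15 in mandibular molars, from 9.49 to 9.89 in incisors and from 9.65 to 10.02 in maxillary molars, and 2 of the 14 were higher in mandibular molars than in incisors and 1 than in maxillary molars, with 0 within either set. With this mean as a covariate no member passed in either comparison. The maxillary differences were then 0.28 for *Wnt4*, 0.30 for *Wnt7b*, 0.23 for *Wnt10a*, 0.19 for *Wnt3* and 0.15 for *Wnt6*, all smaller than without it, whereas *Lef1* went from -0.21 to -0.35 and *Axin2* from -0.10 to -0.19. Against incisors the covariate moved *Wnt10a* from 0.26 to 0.09, *Wnt3* from -0.21 to -0.41 and *Wnt7b* from -0.35 to -0.45. Mandibular molar 2, the lowest mandibular sample for *Wnt3*, *Wnt10a*, *Wnt10b*, *Lef1* and *Axin2*, also had the lowest mandibular means of the epithelial markers, 9.64, and of the 7 enamel knot markers, 6.94 where the others lay at 7.43 to 7.98. The knot marker list had 2 members higher in mandibular molars than in incisors, *Fgf4* and *Edar*, and 0 that differed from maxillary molars, against 0 and 1 within the sets.

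Skeletal muscle markers had the same order of means as the ligands that fell. So had cartilage markers, at 8.37 in incisors, 7.33 in mandibular and 7.30 in maxillary molars. The mean over the 10 muscle genes lay between 8.48 and 8.65 in incisors, between 7.36 and 8.67 in mandibular molars and between 6.47 and 7.01 in maxillary molars. The highest mandibular value was that of mandibular molar 2. Of the 10 muscle genes 5 were lower in mandibular molars than in incisors and 8 higher than in maxillary molars. Within the sets these counts were 0 and 7. Keratinizing epithelium markers averaged 7.39 to 7.82 in incisors, 6.50 to 7.53 in mandibular and 6.75 to 7.42 in maxillary molars, with 4 of 9 lower in mandibular molars than in incisors, 5 within the first set, and 0 that differed from maxillary molars. Cartilage markers, 5 of 6 of them higher in incisors but 1 of 6 within the first set, averaged 7.57 to 9.08 there and 7.21 to 7.49 in the molars. Of 5 endothelial markers 0 differed in either comparison, of 3 nerve markers 1 was higher and 1 lower against incisors and 1 higher against maxillary molars, and of 9 mesenchymal markers 3 were higher against incisors and 1 higher and 2 lower against maxillary molars. Within the sets these were 1 higher nerve marker in each comparison, and 2 and 1 higher mesenchymal markers. The part of these tissues in the values of *Wnt3*, *Wnt4*, *Wnt7b* and *Nkd1* was not tested.

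The rest of the pathway was read from 8 lists. Against incisors, where 2.75% of probe sets were called higher and 2.18% lower, most of the called pathway genes were antagonists. Of the 13 listed antagonists 4 were higher in mandibular molars and 2 lower, with a median difference of 0.28. *Sfrp2* (0.90), *Sfrp1* (1.73) and *Sfrp5* (0.42), which encode secreted Frizzled-related proteins that bind Wnt ligands, were higher in mandibular molars. *Sfrp4*, of the same family, was lower by far more, at -4.12, and *Wif1*, another binder of Wnt ligands, was lower at -0.72. *Sfrp1*, *Sfrp2*, *Sfrp4* and *Wif1* also passed within the first set, and *Sfrp5* did not.

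Of 12 other Wnt ligand genes 0 were higher and 2 lower in mandibular molars than in incisors, with a median of -0.16. These were *Wnt5a*, at -1.45, and *Wnt11*, at -0.47, both known mainly from noncanonical signaling, and both passed within the first set. The receptor list had 2 of 12 lower, *Fzd10* (-0.57) and *Fzd9* (-0.61), neither of which passed within the set. *Bambi*, a pathway target that encodes a decoy receptor of the TGFβ family, was the only one of 12 other targets and feedback genes to pass, at -0.79, and it passed within the set at -0.80. The lists of ligand secretion (5 genes), the R-spondin axis (8), cytoplasmic transducers (12) and nuclear partners (10) had 0 called genes against incisors, with medians between -0.10 and 0.08.

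Against maxillary molars, where 1.01% of probe sets were called higher and 1.18% lower, the called pathway genes were fewer. The other ligands *Wnt2b* (-0.44) and *Wnt2* (-0.60) were lower in mandibular molars, and both passed within the second set. *Wnt2* and *Wnt2b* therefore had the sign opposite to that of the 5 member ligands, none of which had passed. The list of other ligands as a whole did not go that way, its median being 0.07. In the R-spondin list *Rspo2* was higher, at 0.38, and *Rspo1* lower, at -0.66, neither of which passed within the second set (0.30 and -0.45), while their receptor gene *Lgr5* was at 0.09. *Fzd4* (0.29), a receptor gene, and the antagonist genes *Dkk2* (0.47) and *Kremen2* (0.36) were higher, and of these *Kremen2* also passed within the second set. Ligand secretion, cytoplasmic transducers, nuclear partners and the other targets had 0 called genes, with medians between -0.05 and 0.06. *Tcf7*, a TCF factor gene listed among nuclear partners and targets, had no probe set of its own symbol alone.

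**Figure D4:**
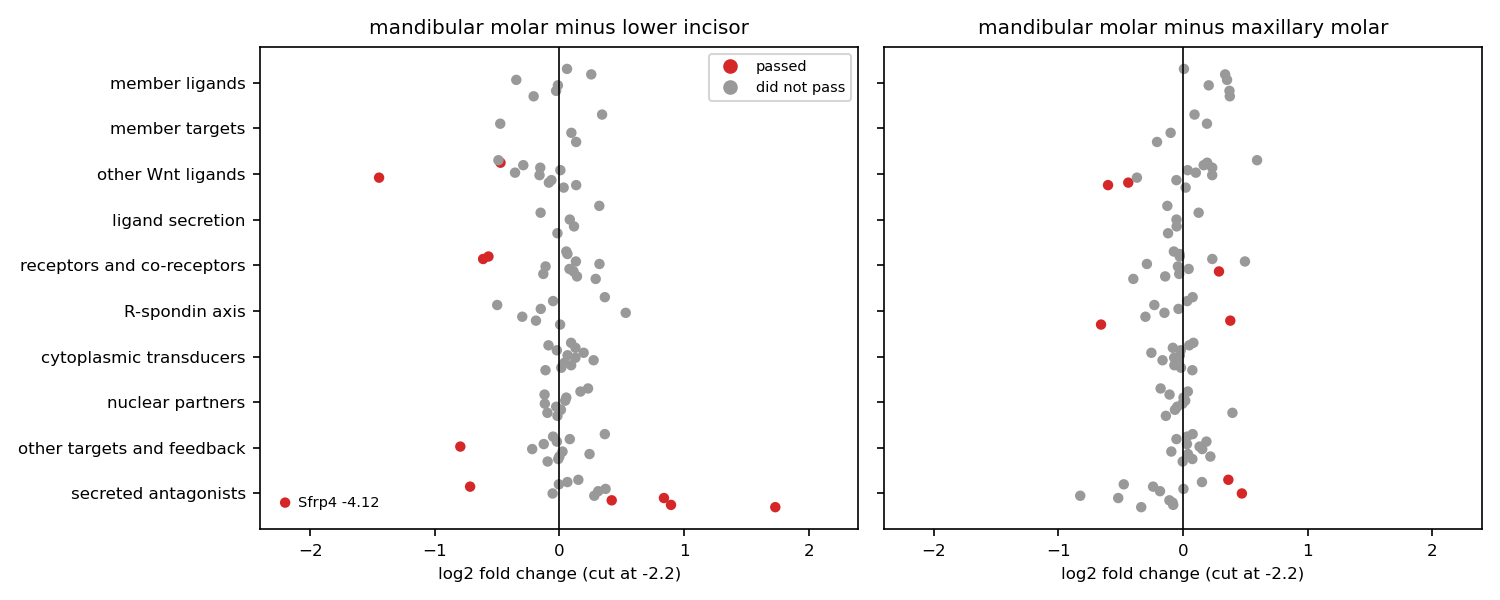
Log2 difference (x axis, cut at -2.2 with *Sfrp4* labelled) of each measured gene of the member ligands, member targets and 8 other pathway lists (rows) in the 2 comparisons. Red points passed the test and grey points did not; the red points farthest from 0 are the antagonists *Sfrp4* and *Sfrp1* and the ligand *Wnt5a* against incisors, and no member is red.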

How the data were processed

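Per the labels and the study's methods, total RNA of pooled tooth germs was hybridized to 16 Affymetrix arrays. The deposited values are log2 RMA signals, which the authors computed in Affymetrix Expression Console 1.1 according to the submitters' processing notes. Symbols came from the platform annotation, updated by gene number to GRCm38.p6: of 35556 probe sets 21789 had 1 symbol, 1621 several and 12146 none. A probe set was kept if any sample compared exceeded 5 on the log2 scale, and each comparison was fitted on its own samples without a block (lmFit and eBayes, limma 3.58.1 in R 4.3.3), after tests on simulated data. Correlations and marker means were computed in Python 3.11.15. Named genes were the members, up to 3 called genes per pathway list, comparison and direction by smallest p, and the 2 genes most like each member. Members and lists were chosen with earlier results of these data known. The number of arrays limits the precision. No source says that pools came from separate litters, so p-values reflect only the spread among these pools, which may be technical. Alternatives were other filters, normalizations, probe set rules, variance settings, covariates and sample subsets.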

Additional observations from a re-analysis of the deposited data

Results flagged for a closer look

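Of 30 groups of member values examined by Dixon's criterion, 4 held a sample far from the others of its tooth type, where chance marks about 1 in 20 groups. Incisor 3 was the high sample for *Wnt6*, at a log2 signal of 7.73, and the low one for *Lgr5*, at 9.75. Mandibular molar 2 was the low sample for *Wnt10a*, at 8.22, and for *Wnt10b*, at 6.93. Without incisor 3 neither *Wnt6* nor *Lgr5* passed against incisors, whereas without mandibular molar 2 *Wnt10a* passed in both comparisons.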

How the results depend on the processing

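No member passed in either comparison in the reported fits. The counts below are members called under other settings, and the cause of each change was not tested. The share of all probe sets called was computed for the reported fits alone. A count under another setting therefore cannot be read as particular to the members. Lower in mandibular molars than in incisors was 1 member (*Nkd1*) with a filter above 6, quantile normalization, cyclic loess, all 3 tooth types in 1 fit, 1 probe set per gene or the mean over probe sets. Array weights gave 1 higher (*Wnt10a*) and 2 lower (*Wnt7b*, *Nkd1*), as did mandibular molars 5 to 8 only. Higher in mandibular than in maxillary molars were 1 with a filter above 6 (*Wnt10a*), 2 with array weights, 1 probe set per gene or the mean over probe sets (*Wnt4*, *Wnt10a*), 3 with mandibular molars 1 to 4 only (*Wnt4*, *Wnt7b*, *Nkd1*) and 1 with 5 to 8 only (*Wnt10a*). Leaving out 1 sample gave 0 to 1 in each direction against incisors, 0 to 1 higher and 0 lower against maxillary molars. The other settings, among them sample set as a block and the methods' t-test, gave 0.

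A replicate block gave 0 against incisors and 5 higher against maxillary molars (*Wnt3*, *Wnt4*, *Wnt7b*, *Wnt10a*, *Nkd1*). Deviations of same-numbered samples correlated at 0.08 to 0.50 for incisors and at 0.00 to 0.34 for maxillary molars. Incisors 3 and 4 and maxillary molars 1 and 2 correlated best with the mandibular molar of their own number, and the others with another number. No label ties the numbers, and they were not taken to pair the samples. Whether they do was not tested. The block leaves mandibular molars 1 to 4 to set the difference.

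Signs turned only for differences near 0 that were never called. Against incisors *Wnt6* was 0.0074 with quantile normalization, 0.0064 with cyclic loess and 0.0066 with array weights. With mandibular molars 1 to 4 only, the replicate block or the sample set block, *Wnt4* was 0.12, *Wnt10b* -0.040 and *Lef1* -0.0043, and with the epithelial covariate *Wnt10b* was -0.11. Leaving out 1 sample ranged over -0.095 to 0.0056 for *Wnt4*, -0.055 to 0.095 for *Wnt6*, -0.0087 to 0.18 for *Wnt10b*, -0.020 to 0.25 for *Lef1* and -0.017 to 0.20 for *Axin2*. Against maxillary molars *Wnt10b* was -0.019 with cyclic loess, -0.093 with mandibular molars 1 to 4 only or the block, -0.12 with the covariate, and -0.031 to 0.076 leaving out 1 sample. Of the signs and calls of single members under all settings, 498 stayed, 34 came to pass and 28 turned. All members lay above the filter of 5 in every sample.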
